A study of Homo sapiens with 6 samples.

Results

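BATF, BATF2, BATF3, JDP2, ATF3, MAF, MAFF, MAFG and MAFK are 9 basic leucine zipper (bZIP) transcription factors, chosen as the rows of the gene table that carry these symbols. All 9 were found among its 19899 genes. They were followed in COV434, an established ovarian cell line used as a model of SCCOHT, the small cell carcinoma of the ovary that comes with high blood calcium and lacks BRG1, the SWI/SNF chromatin remodeling ATPase encoded by SMARCA4. Control cells received the plasmid pCDNA3-neo and BRG1 cells the plasmid PBJ5-BRG1 (n = 3 samples each, numbered 1 to 3 in each group and described as biological replicates). All cells of both groups also received pBABE-puro, and 24 hours later puromycin at 2 to 3 µg/ml was applied for 3 days. The samples are therefore puromycin-selected, transiently transfected cells of 1 line. RNA was read from poly(A) libraries that do not keep strand.

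The 9 factors bind DNA as dimers held together by a leucine zipper. BATF, BATF2, BATF3, JDP2 and ATF3 have no activation domain of the FOS kind and pair chiefly with JUN proteins, with which they occupy AP-1 and related elements, and BATF proteins also cooperate with IRF4 and IRF8 in immune cells. MAF is a large Maf protein with an activation domain, whereas MAFF, MAFG and MAFK are small Mafs without one, which repress as homodimers and act at antioxidant elements as partners of NRF2 (encoded by NFE2L2) and the BACH proteins.

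SMARCA4, the transfected gene, had normalised counts of 1439, 1676 and 1538 in Control samples 1 to 3 and of 108655, 79075 and 78589 in BRG1 samples 1 to 3, the latter with plasmid transcripts included. The libraries held between 29699741 and 63613710 estimated counts. A gene was called at a Benjamini-Hochberg adjusted p under 0.05 by DESeq2, and 11.0% of the 16002 genes tested were called higher and 1.84% lower with BRG1. With the replicate number as a block, which compares each BRG1 sample with the Control sample of the same number, 13.4% were called higher and 6.61% lower. The edgeR test called 9.57% higher and 1.02% lower, or 13.7% and 5.68% with the block. Of the markers of other cell types, the lymphoid and NK genes CD3E, MS4A1 and FCGR3A were at or under 3 counts in every sample, while the sum over 9 immune genes was 417 to 790.4 in Control and 448 to 854 in BRG1 samples, carried mostly by PTPRC. LYZ was called higher among them. The summed counts of 5 fibroblast genes were 1218 to 1350 and 1098 to 1363, with PDGFRA called higher. The granulosa regulator FOXL2 was at or under 3 counts in every sample, and the sum over 7 granulosa genes was 402 to 537 in Control and 948 to 2069 in BRG1 samples, with CYP19A1 and INHBA called higher. The part of these genes in the results was not tested. In such bulk samples, fewer cells of a type and less RNA per cell cannot be told apart.

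The 9 genes did not behave alike. BATF2 was higher with BRG1 in all samples by more than an order of magnitude. JDP2 and MAF were higher in all BRG1 samples than in all Control samples, by smaller folds whose calls depended on the test. ATF3 and MAFF were abundant and differed more between replicate numbers than between the groups, so that they were called only with the block. DESeq2 called 3 of the 8 members it tested higher (BATF2, JDP2 and MAF), or 37.5%, beside the 11.0% of all genes, and 0 lower, with 0 lower at an unadjusted p under 0.05 in that fit, in edgeR and in both fits with the block. With the block, 4 were called higher (BATF2, JDP2, ATF3 and MAFF) beside 13.4% of all genes. Without the block edgeR called 1 (BATF2), beside 9.57% of all genes. With the block edgeR called the same 4 as DESeq2, beside 13.7% of all genes. The DESeq2 count without the block fell from 3 to 1 when Control sample 3, BRG1 sample 1 or BRG1 sample 2 was left out. The median log2 fold change of the 8 was 0.44, beside -0.01 for all genes tested, and all 8 values were above 0, as were 48.3% of all genes. In 3 of the 8 the groups did not overlap, with BRG1 higher, beside 16.7% of all genes, and 6 of the 8 were higher with BRG1 in every numbered pair, beside 27.3%. The members were chosen with earlier results of these data known, so these shares are only a description.

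**Figure D1:**
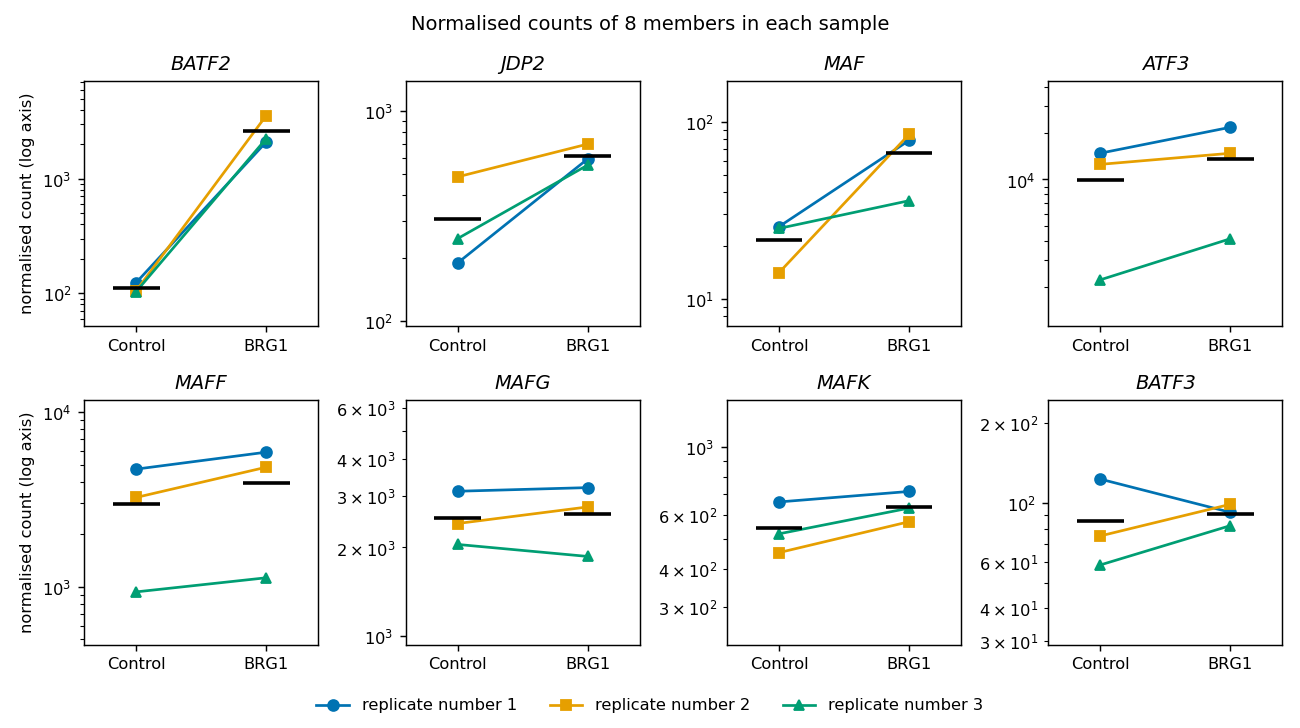
Normalised counts (y axis, log scale, a separate range for each gene) of 8 members in Control and BRG1 samples, with a line joining the samples of the same replicate number and a black bar at each group's mean (n = 3). BATF2, JDP2 and MAF show no overlap between groups, while for ATF3 and MAFF both samples numbered 3 lie below all others.

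BATF2, a BATF protein induced by interferons in myeloid and epithelial cells, was the member with the largest difference. The gene spans 64987945 to 64997018 of chromosome 11, minus strand, in GRCh38 (GENCODE release 44, as for all positions of genes given here). Control samples 1 to 3 had normalised counts of 124, 106 and 104. In BRG1 samples 1 to 3 they were 2095, 3559 and 2240. The Control samples lay close together, and every BRG1 sample was far above every Control sample. Its Control mean was 111 ± 11.4 and its BRG1 mean 2632 ± 807 (SD, n = 3 each). DESeq2 gave a fold of 23.7 with a 95% interval of 16.7 to 33.8 (adjusted p = 2.29e-66), and the folds within numbers 1 to 3 were 16.9, 33.7 and 21.6. The edgeR adjusted p was 8.26e-05. BATF2 was called in every alternative and with each sample left out, with log2 fold changes between 4.26 and 4.74.

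BATF3, needed for a class of dendritic cells that present antigen to cytotoxic T cells, lies on chromosome 1 from 212686417 to 212699840, 65639 bases from ATF3 with no other gene of the table between them. Its normalised counts were 123, 75.0 and 58.3 in Control and 92.1, 98.8 and 82.1 in BRG1 samples 1 to 3. The BRG1 samples lay within the Control range. The fold was 1.07 with a 95% interval of 0.650 to 1.78 (DESeq2 adjusted p = 0.942), so that a change of less than the bounds of that interval was not resolved. BATF, a factor of T and B cell differentiation, lies on chromosome 14 from 75522455 to 75546993. It is 48343 bases from JDP2, again with no gene between them by the same match of symbols. BATF had 0 counts in 5 samples and an estimated count of 1.00 in BRG1 sample 2, at or under the floor of 3 counts everywhere. No fold was therefore given, and expression was not detectable at this depth. The 3 BATF genes thus had unlike values in the same samples: one far higher with BRG1, one with overlapping groups and one at the floor.

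JDP2, a repressor that competes with JUN partners at AP-1 and cAMP response elements, lies on chromosome 14 from 75427716 to 75474111. Its normalised counts were 189, 487 and 247 in Control samples 1 to 3 and 593, 698 and 554 in BRG1 samples 1 to 3. The lowest BRG1 sample was above the highest Control sample, Control sample 2, which stood apart from the other Control samples. The mean rose from 307 ± 158 to 615 ± 74.5 (SD, n = 3 each), a fold of 2.00 with a 95% interval of 1.24 to 3.23 (DESeq2 adjusted p = 0.0366). Within numbers 1 to 3 the folds were 3.14, 1.43 and 2.24. With the block the log2 fold change was 1.10 (DESeq2 adjusted p = 0.000156, edgeR 0.0135), while edgeR without the block did not call it (adjusted p = 0.142). The call without the block was lost when Control sample 1 (adjusted p = 0.203), Control sample 3 (0.209), BRG1 sample 1 (0.117) or BRG1 sample 2 (0.247) was left out of the DESeq2 fit, and with the block when number 1 was left out (0.0537).

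ATF3, a stress-induced factor that represses or activates according to its partner, lies on chromosome 1 from 212565334 to 212620777 and was the most abundant member per length. Control samples 1 to 3 had normalised counts of 14840, 12550 and 2222. In BRG1 samples 1 to 3 they were 21889, 14820 and 4115. Both samples numbered 3 were low, and each BRG1 sample was above the Control sample of its number, while the groups overlapped. Within a group the highest sample exceeded the lowest 6.68-fold in Control and 5.32-fold in BRG1 samples, against folds of 1.48, 1.18 and 1.85 between groups within numbers 1 to 3. Without the block the log2 change was 0.46 ± 0.94 (standard error, DESeq2 adjusted p = 0.884). With the block it was 0.56 ± 0.14, a fold of 1.48 with a 95% interval of 1.23 to 1.78 (adjusted p = 0.000409 by DESeq2 and 0.0266 by edgeR). The blocked DESeq2 call was kept when any 1 replicate number was left out, with log2 fold changes between 0.40 and 0.72.

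**Figure D2:**
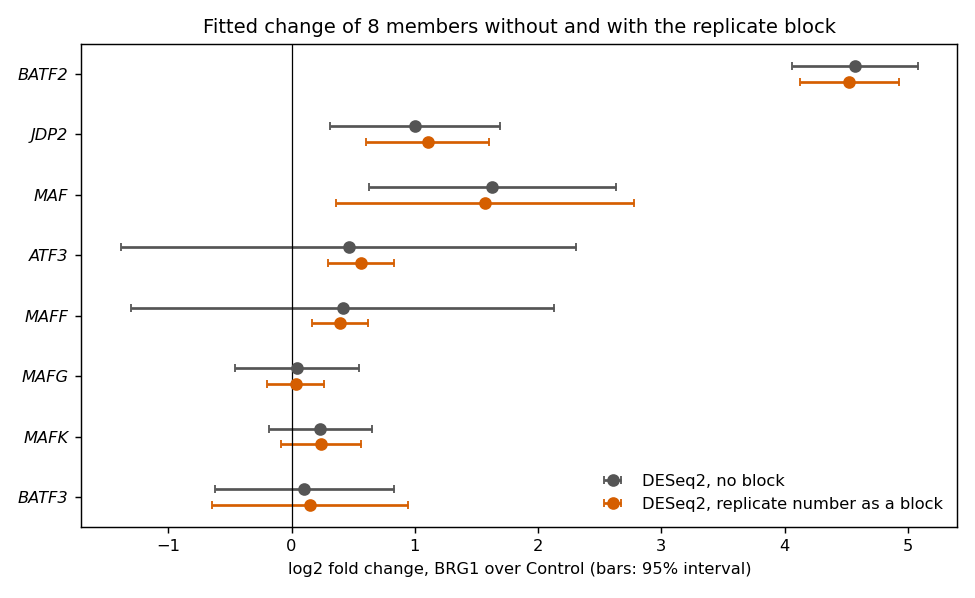
Fitted log2 fold change of BRG1 over Control (x axis) for 8 members (y axis) by DESeq2 without the block (grey) and with the replicate number as a block (orange), with 95% intervals. The intervals of ATF3 and MAFF narrow with the block (standard errors of 0.94 and 0.88 become 0.14 and 0.12). Those of MAF and BATF3 widen.

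MAF, the large Maf known for cytokine genes in T cells, lens crystallins and myeloma, lies on chromosome 16 from 79585843 to 79600737 on the minus strand. Its normalised counts were low, at 25.6, 14.1 and 25.0 in Control samples 1 to 3 and 78.3, 84.7 and 35.8 in BRG1 samples 1 to 3. All BRG1 samples were above all Control samples, although BRG1 sample 3 was closer to the Control samples than to the other BRG1 samples. The Control mean was 21.5 ± 6.48 and the BRG1 mean 66.3 ± 26.6 (SD, n = 3 each), a fold of 3.09 with a 95% interval of 1.54 to 6.19 (DESeq2 adjusted p = 0.0142). Within numbers 1 to 3 the folds were 3.06, 6.02 and 1.43. MAF was not called by edgeR (adjusted p = 0.0632), by DESeq2 with the block (0.0540) or by edgeR with the block (0.0514). The DESeq2 call was also lost without Control sample 2 (0.102), Control sample 3 (0.0507), BRG1 sample 1 (0.180) or BRG1 sample 2 (0.240).

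MAFF, the small Maf most readily induced by stress and cytokines, lies on chromosome 22 from 38200767 to 38216507. Its normalised counts were 4713, 3246 and 936 in Control and 5892, 4834 and 1127 in BRG1 samples 1 to 3. As for ATF3, both samples numbered 3 were the lowest, the groups overlapped, and each BRG1 sample was above the Control sample of its number, by folds of 1.25, 1.49 and 1.20. Without the block the log2 change was 0.41 ± 0.88 (standard error, DESeq2 adjusted p = 0.890). With the block it was 0.39 ± 0.12, a fold of 1.31 with a 95% interval of 1.12 to 1.53 (adjusted p = 0.00553 by DESeq2 and 0.0290 by edgeR). That blocked DESeq2 call was lost when number 1 (adjusted p = 0.101) or number 2 (0.447) was left out.

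MAFG and MAFK, the small Mafs expressed in most tissues, were not called by any of the 4 fits. MAFG lies on chromosome 17 from 81918270 to 81927735 and had normalised counts of 3114, 2416 and 2049 in Control and 3204, 2752 and 1864 in BRG1 samples 1 to 3. The order of the numbers was the same in both groups, and the pairs did not move one way, with folds of 1.03, 1.14 and 0.910. With the block the 95% interval of the MAFG fold was 0.870 to 1.20 (DESeq2 adjusted p = 0.915). MAFK, on chromosome 7 from 1530702 to 1543043, had 661, 451 and 520 in Control and 716, 570 and 631 in BRG1 samples 1 to 3. Its groups overlapped although each BRG1 sample was above the Control sample of its number, with folds of 1.08, 1.26 and 1.21 (adjusted p = 0.649 by DESeq2 and 0.359 with the block). Of MAFK's exon bases, 18.1% lie over the antisense gene TMEM184A, and for MAFG and MAFF 6.28% and 5.81% are shared with other genes. Some of their reads therefore cannot be assigned to a gene by position without strand. MAFG shares bases with SIRT7 on the same strand as well, where strand would not separate the reads.

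The share of the differences among the 6 samples that followed the group set the members apart. The sum of squares of log2(normalised count + 1) was divided into a part between Control and BRG1, a part between replicate numbers and the rest. There are more numbers than groups, so on average the part between numbers is the larger even where neither has an effect. For BATF2, 98.8% lay between the groups and 0.42% between the numbers. For MAF and JDP2 the group took 72.4% and 63.9%. For ATF3, MAFF and MAFG the order was the opposite, with 93.0%, 96.2% and 94.6% between numbers and 5.76%, 3.42% and 0.28% between the groups. MAFK had 65.8% and BATF3 57.3% between numbers. The median gene, among those averaging at least 50 normalised counts, had 23.3% between groups and 53.2% between numbers, so BATF2, MAF and JDP2 were above the median gene in the share of the group, as was MAFK with 29.7%, and ATF3, MAFF, MAFG and BATF3 were below it.

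**Figure D3:**
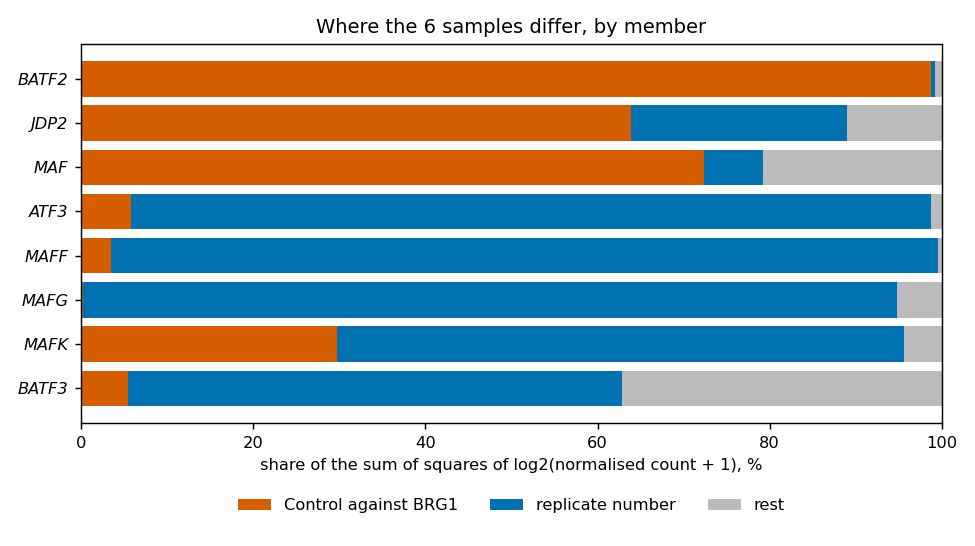
Share in percent (x axis) of the sum of squares of log2(normalised count + 1) over the 6 samples that lies between Control and BRG1, between replicate numbers, and in the rest, for 8 members. The group share is 98.8% for BATF2, and the replicate number takes over 90% for ATF3, MAFF and MAFG.

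Levels of different members were compared as normalised counts per kilobase of annotated exon. In Control samples the order of the mean levels was ATF3 (2469 ± 1681, SD, n = 3), MAFF (528 ± 339), MAFG (482 ± 103), MAFK (122 ± 23.96), JDP2 (49.1 ± 25.2), BATF2 (39.5 ± 4.04), BATF3 (33.3 ± 13.1) and MAF (3.08 ± 0.93), with BATF at 0. ATF3 was above each other member within every sample, although its range over samples overlapped those of MAFF and MAFG. MAFF and MAFG, JDP2 and BATF2, and BATF2 and BATF3 overlapped in range and changed order between samples. In BRG1 samples BATF2 had moved to place 2 with 935 ± 287, behind ATF3 (3404 ± 2238) and ahead of MAFF (704 ± 446), MAFG (497 ± 130), MAFK (143 ± 16.4), JDP2 (98.2 ± 11.9), BATF3 (35.4 ± 3.28), MAF (9.47 ± 3.80) and BATF (0.298 ± 0.517). There ATF3 was again above each other member within every sample, although its range over samples overlapped those of BATF2 and MAFF. The order of BATF2, MAFF and MAFG changed between samples, and MAFK, JDP2, BATF3, MAF and BATF each stood clear of its neighbours. With the length of the longest transcript in place of all exon bases, BATF2 and MAFF changed places in BRG1 samples.

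**Figure D4:**
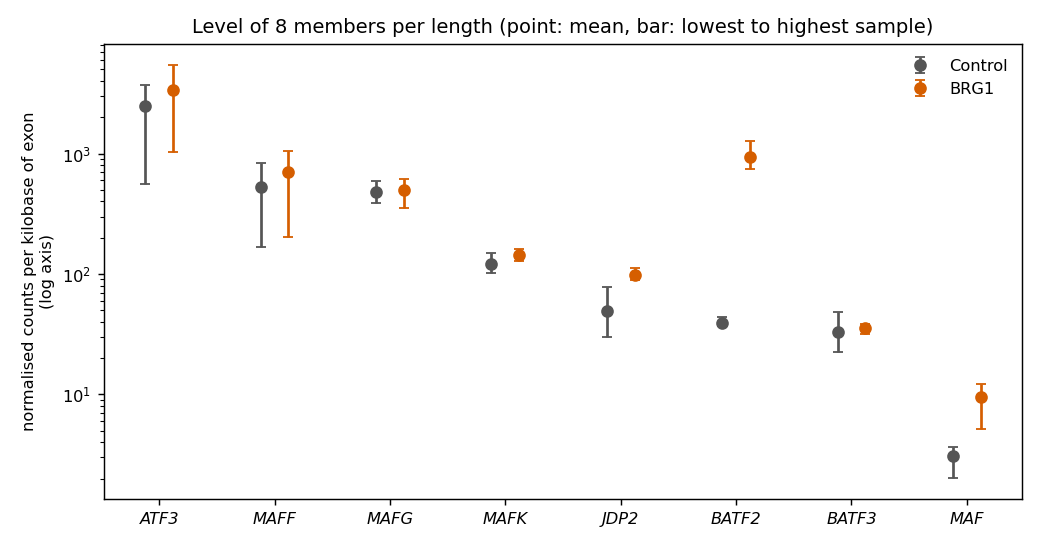
Normalised counts per kilobase of annotated exon (y axis, log scale) for 8 members in the order of their Control means, with points for group means and bars from the lowest to the highest of 3 samples. BATF2 is beside JDP2 and BATF3 in Control samples and among MAFF and MAFG in BRG1 samples.

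The promoter sequences of members were searched for motifs that bZIP or interferon-activated factors are known to bind. Promoter windows from 250 bases before to 50 after a transcription start (RefSeq, GRCh38.p14) were found for 7 of the 9 members, in 11 entries. BATF3 and MAFK had no entry and were not searched. The single BATF2 entry is at a start 6741 bases inside the annotated gene, so BATF2 was not searched at its annotated start. The starts of the ATF3 entries lie 73 and 49684 bases inside the annotated gene, and those of the MAFF entries 1227 and 2253 bases. Both strands were searched for the AP-1 element TGANTCA, the cAMP response element TGACGTCA, the core of the interferon response element and the Maf recognition element. Over 35116 promoters these occurred in 7.71%, 1.85%, 3.57% and 0%. The AP-1 element lies within the Maf recognition element, so a match to the latter would count for both. Only the cAMP response element was matched in a member, once in MAF at position -45 and once in MAFF at position -54 from the start site. These 2 windows are shown because they hold the only matches, 5′ to 3′ on the strand of the gene with the element in capitals. The MAF window is on the minus strand and the MAFF window, at a start 1227 bases inside the annotated gene, on the plus strand. A match is a description of letters and not of binding.
MAF, chr16:79600688-79600987: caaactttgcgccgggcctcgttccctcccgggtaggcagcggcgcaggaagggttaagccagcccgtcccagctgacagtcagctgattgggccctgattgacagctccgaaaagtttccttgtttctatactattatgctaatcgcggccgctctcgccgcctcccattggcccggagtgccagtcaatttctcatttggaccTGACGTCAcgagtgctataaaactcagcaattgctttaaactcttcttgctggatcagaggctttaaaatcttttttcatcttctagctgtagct
MAFF, chr22:38201744-38202043: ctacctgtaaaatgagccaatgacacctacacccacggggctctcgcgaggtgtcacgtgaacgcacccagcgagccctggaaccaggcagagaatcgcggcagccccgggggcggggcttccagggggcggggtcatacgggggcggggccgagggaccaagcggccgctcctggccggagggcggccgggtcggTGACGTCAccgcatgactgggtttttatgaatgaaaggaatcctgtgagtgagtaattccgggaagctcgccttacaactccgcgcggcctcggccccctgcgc

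The dimer partners of the members were read from a list of 15 FOS, JUN, NRF and BACH genes with IRF4 and IRF8, of which 14 were tested. DESeq2 called 0 of them, although an unadjusted p under 0.05 was reached by 3 with values above 0 and by 0 with values below it. The edgeR test, which covered 13 of the partners, also called 0, and 1 reached an unadjusted p under 0.05. Without Control sample 3 DESeq2 called 1 and without BRG1 sample 3 it called 2. With the block DESeq2 called 9 higher, beside 13.4% of all genes, and edgeR 8 of 13, beside 13.7%. Over the tested partners the median log2 fold change was 0.58, beside -0.01 for all genes. NFE2L3, an NRF protein of the endoplasmic reticulum, had the smallest adjusted p without the block (0.0544) and a blocked fold of 1.73 (adjusted p = 0.00402), with folds of 2.47, 2.07 and 1.00 within numbers 1 to 3. FOS, the classic partner of JUN, had a blocked fold of 1.78 (adjusted p = 4.62e-05). FOSL1 (FRA1) had a blocked fold of 2.54, although its folds within numbers 1 to 3 were 4.65, 3.29 and 0.926. FOSB had a blocked fold of 2.01, and NFE2L2, the partner of small Mafs, 1.35 (adjusted p = 0.000997). FOSL2, JUN, JUNB and BACH1, named after their values were seen, were the others called by DESeq2 with the block. The IRF partners of BATF proteins were hardly detected, with normalised counts of at most 8.53 for IRF4 and 2.49 for IRF8.

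FOSL2, which makes the FOS protein FRA2, differed between replicate numbers as ATF3 and MAFF did. Its normalised counts were 5956, 5401 and 1062 in Control and 11577, 10223 and 2019 in BRG1 samples 1 to 3, so that both samples numbered 3 were low. Its folds within numbers were 1.94, 1.89 and 1.90. JUND, the JUN protein least tied to stimulation, was not called (DESeq2 adjusted p = 0.999).

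Other bZIP genes were described with 14 relatives, namely ATF and CREB genes, other Mafs and DDIT3 (CHOP). Without the block DESeq2 and edgeR each called 0 of them, and in both fits an unadjusted p under 0.05 was reached by 1 with a value above 0 and by 0 with a value below it. With the block CREB5 was called higher by both tests, with a blocked fold of 5.57 (DESeq2 adjusted p = 7.11e-13). Its normalised counts were 110, 65.7 and 7.57 in Control and 532, 326 and 65.7 in BRG1 samples 1 to 3, low in both samples numbered 3. CREM was called lower with a blocked fold of 0.789 by DESeq2 and was not called by edgeR. Leaving out BRG1 sample 3 gave 1 call lower without the block. Over these relatives the median was -0.03 on the log2 scale, beside -0.01 for all genes.

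Among 18 antioxidant genes that NRF2 regulates with small Mafs, 17 were tested. DESeq2 called 3 of these higher, beside 11.0% of all genes, and 0 lower. At an unadjusted p under 0.05, 6 were higher and 1 lower by DESeq2, and likewise 6 and 1 by edgeR. AKR1C1, an aldo-keto reductase, was called with normalised counts of 29.2, 36.3 and 40.9 in Control and 194, 105 and 101 in BRG1 samples 1 to 3. TXNRD1, thioredoxin reductase, rose by 1.66 on the log2 scale (DESeq2 adjusted p = 0.00029). GCLM, the modifier subunit of glutathione synthesis, rose by 1.09 (adjusted p = 0.0239) and was not called by edgeR. The edgeR test called 2, beside 9.57% of all genes. With the block DESeq2 and edgeR each called 7 higher, beside 13.4% and 13.7% of all genes. TKT of the pentose phosphate pathway (blocked fold 1.46) and the ferritin gene FTH1 (1.34) were among the 7. DESeq2 with the block also called 1 lower, SLC7A11, the cystine transporter, named after its values were seen (blocked fold 0.733), which edgeR with the block did not call. NQO1 and GCLC, which are widely used as NRF2 target genes, were not called and had log2 fold changes of -0.17 and -0.13. Over the tested genes of the list the median was 0.17 on the log2 scale, beside -0.01 for all genes, and leaving out BRG1 sample 3 raised the DESeq2 calls to 5.

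Of 16 genes of the ATF4, CHOP and ATF3 stress response, DESeq2 and edgeR each called 2 higher, a share near the 11.0% and 9.57% of all genes, and 0 lower, and in both fits 0 were lower at an unadjusted p under 0.05. VLDLR, a lipoprotein receptor, rose by 3.82 on the log2 scale (DESeq2 adjusted p = 2.12e-25), and GDF15, a secreted stress cytokine, by 0.90 (adjusted p = 3.66e-05). With the block each test called 4 higher, beside 13.4% of all genes by DESeq2 and 13.7% by edgeR. The added calls were SLC7A5, an amino acid transporter, and GADD45B. The normalised counts of GADD45B were 1169, 911 and 125 in Control and 3926, 2644 and 449 in BRG1 samples 1 to 3, again low in both samples numbered 3. TRIB3, ASNS and CHAC1, target genes of ATF4, were not called, with log2 fold changes of 0.18, -0.10 and -0.08. Over the list the median was 0.19 on the log2 scale, beside -0.01 for all genes.

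**Figure D5:**
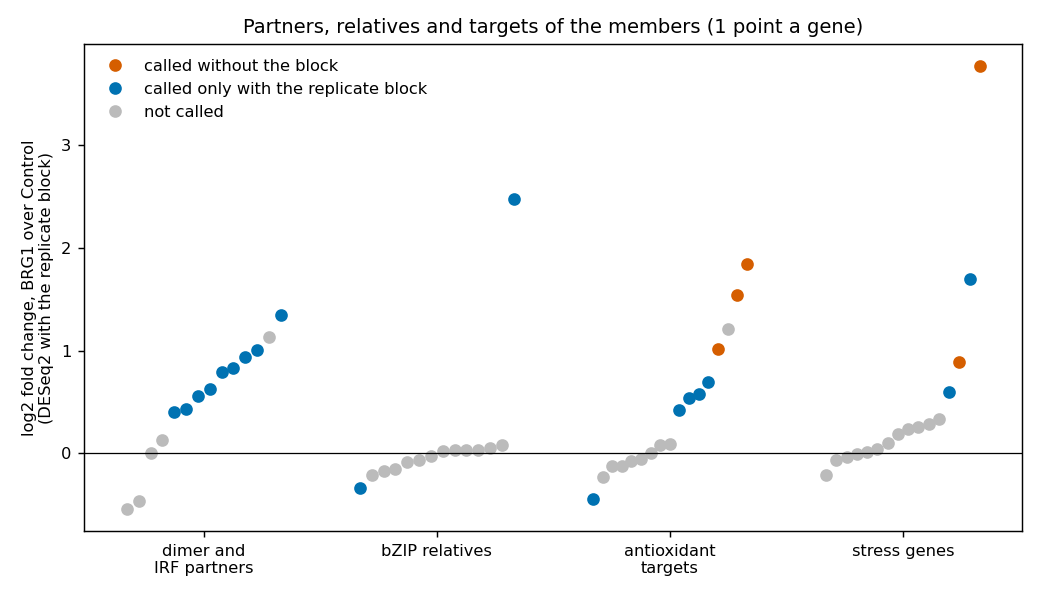
Log2 fold change of BRG1 over Control by DESeq2 with the replicate block (y axis) for each tested gene of 4 lists (x axis), colored by whether the gene was called without the block, only with it, or not at all. Among partners 9 genes are called, all with the block only and all above 0, while most bZIP relatives lie near 0.

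The genes whose pattern over the 6 samples was most like that of each member, by Pearson's r of log2(normalised count + 1), are given as a description, since all 6 samples share the groups and the replicate numbers. BATF2 was most like MTSS1, USP18 and IRF9 (r = 0.998 each, n = 6), of which USP18 and IRF9 act in interferon signaling, and 507 genes had an r of at least 0.95 with it. ATF3 was most like GPATCH8 (0.995), BCL6 (0.991) and NFKBIA (0.990), and MAFF was most like BCL6 (0.997), COQ10B (0.996) and YTHDF1 (0.996), so the repressor gene BCL6 stood in both. MAFG was most like RABGEF1, CFL2 and PSME3 (0.990 to 0.996). JDP2 was most like HARBI1, IGSF1 and ARHGDIG (0.983 to 0.989), and MAF was most like RAB43, CAMK1D and RNF149 (0.986 to 0.991). BATF3 was most like LRP6, TBC1D15 and MIEF1 (0.967 to 0.991), and MAFK was most like COL27A1, LRRC75A and SS18L2 (0.978 to 0.980). For JDP2, BATF3 and MAFK only 16, 11 and 20 genes reached an r of 0.95.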

How the data were processed

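RNA-seq of 3 Control and 3 BRG1 samples was used. The authors aligned reads of 78 bases to hg38 with STAR (version 2.5.3a), quantified transcripts with Salmon (version 0.8.2) on GENCODE and summed them to genes with tximport, per the labels and methods. The values deposited by the authors are estimated counts, 1 row a gene, scaled by transcript length and library size (lengthScaledTPM). They need not be whole, and a model divides ambiguous reads among genes. They were rounded to whole numbers here.

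BRG1 was compared with Control over the whole table with the Wald test of DESeq2 (version 1.42.0, R 4.3.3), no covariate, a Benjamini-Hochberg adjusted p under 0.05 and 95% intervals from the standard error. Adjusted p-values left empty stayed empty. Normalised counts are divided by DESeq2 size factors. The edgeR quasi-likelihood test (version 4.0.16, TMM) and the other alternatives appear in the closing section. The fits were tested on simulated data, where the share of false calls exceeded the named threshold in both tests, and by far more in DESeq2 than in edgeR. The simulated samples differed by group but not by replicate number, so they cannot show how the blocked fits behave on paired samples. Depth was 29699741 to 63613710 estimated counts per sample, and it limits MAF and BATF most. A count of 3 was the floor.

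Same-numbered Control and BRG1 samples, described in the labels as biological replicates, deviated together from their group means (r = 0.495, 0.433 and 0.576 for numbers 1 to 3, over 12433 genes), so the numbers were taken to pair the samples. Blocked values are printed beside the others.

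The members and gene lists were chosen with earlier results of these data known. All members were named. From each list up to 5 genes called with or without the block were named, by the smallest adjusted p without the block, and for each member with a mean of at least 10 the 3 genes with the highest r among genes with a mean of at least 50. Some genes of the lists are not reported here, and counts, sums and medians of lists are over the rest. Exceptions are marked, or are given as genes not called.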

Additional observations from a re-analysis of the deposited data

How the results depend on the processing

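BATF2 and SMARCA4 were called under each alternative. Members called higher numbered 3 without the block, 1 by edgeR, 1 at an adjusted p under 0.01, and 1 to 3 when a sample was left out (1 without Control sample 3, BRG1 sample 1 or BRG1 sample 2). With the replicate block by DESeq2 and by edgeR, partners called higher were 9 and 8, relatives 1 and 1, antioxidant targets 7 and 7, and stress genes 4 and 4. Of all genes tested, these 2 fits called 13.4% and 13.7% higher. The block by DESeq2 also called 1 relative and 1 antioxidant target lower. It ended the call of MAF, made those of ATF3 and MAFF, and changed no other member's call. A minimum of 10 counts in 3 samples gave 1 relative higher. Leaving out a sample gave 0 to 2 partners higher (2 without BRG1 sample 3, 1 without Control sample 3), 0 relatives higher each time, 0 to 1 relatives lower (1 without BRG1 sample 3), 2 to 5 antioxidant targets higher (5 without BRG1 sample 3) and 2 to 3 stress genes higher. The cause of these differences was not tested.

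In fits without the block, the fold changes of BATF3, ATF3, MAFF and MAFG, which were not called there, turned in sign with a sample left out. That of MAFK stayed above 0. Leaving out 1 sample leaves the other sample of its number unpaired. With 1 sample left out, the log2 fold change ran from -0.118 to 0.457 for BATF3, -0.0585 to 0.897 for ATF3, -0.0106 to 0.913 for MAFF and -0.127 to 0.240 for MAFG. It was below 0 without Control sample 3 for all 4 of these genes and also without BRG1 sample 1 for ATF3 and MAFG. The blocked fit that left out a number, added after the data were seen, gave -0.0149 for BATF3 without number 3 and -0.0483 for MAFG without number 2. For ATF3 (0.40 to 0.72) and MAFF (0.29 to 0.45) that blocked fit stayed above 0 whichever number was left out. By Spearman's rho, between 6 (for BATF3) and 105 genes (for MAFF) tied at 1 with a member. The 3 taken for each member were the first of the tied genes by name, and 0 of the 24 genes named by Pearson's r were among them. This comparison therefore cannot show whether the measures differ. Depth limits MAF, at low counts, and BATF, at the floor.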
